A study of Caenorhabditis elegans with 6 samples.

Results

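Loss of DAF-16 in animals with low insulin signalling was examined by setting the transcriptome of a daf-16;daf-2 double mutant, daf-16(-);daf-2(-), against that of the daf-2 single mutant, daf-2(-). The members of this comparison are 4 poly(A) RNA-seq libraries of whole Caenorhabditis elegans, 2 replicates of each strain, out of 6 libraries in the series. The other 2 libraries, of wild type (WT), took no part in choosing genes. Their values are given for orientation, and they also enter some alternative fits below, where they share in the estimate of the spread. Both mutants carry daf-2(e1370), a lowered-function allele of the insulin/IGF-1 receptor gene, and the double mutant also carries daf-16(mgDf50), a deletion within daf-16. Worms were grown at 20 °C on OP50 bacteria as mixed-stage populations, so each library holds RNA of larvae, adults, germ cells and embryos together, and a lower share of animals of some stage cannot be told apart from less RNA per animal. Genes were joined by name between the tables of the strains, and a gene listed for only 1 strain was taken as 0 in the other, which left 20378 genes above 0 in at least 1 of the 4 libraries.

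DAF-2 is the only insulin/IGF-1 receptor of the worm. When ligand binds it, a kinase cascade through AGE-1, PDK-1 and AKT-1/AKT-2 phosphorylates the forkhead factor DAF-16, which is then held in the cytosol. In daf-2 mutants the cascade is weak, DAF-16 enters nuclei, and the animals live long, resist stress, store fat and readily form dauer larvae, phenotypes that need daf-16. Genes that DAF-16 activates directly or indirectly are therefore known to be low in the double mutant, and genes held down in its presence are known to be high. All differences below are the double mutant minus daf-2(-), so a negative log2 fold change means that the RNA was lower when daf-16 was lost.

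Values are RPKM (mapped reads scaled to transcript length and to library size), and fold changes are on the log2(RPKM + 1) scale, which understates the change of low genes. The daf-16 gene itself was measured first. Its RNA stood at 25.16 and 22.4 RPKM in daf-2(-) and 6.44 and 4.60 RPKM in the double mutant, and at 24.9 and 29.4 RPKM in WT. Both double mutant libraries were below all others, and the groups did not overlap (log2 fold change -1.94 ± 0.24 SE, adjusted p = 0.00343). The remaining daf-16 reads were not assigned to exons in these tables. The daf-2 gene, whose allele is a missense change, read 11.2 and 8.84 RPKM in daf-2(-) and 15.5 and 10.2 RPKM in the double mutant, and the groups overlapped (log2 fold change 0.31 ± 0.27 SE, adjusted p = 0.45). Replicates of a strain correlated across genes at r = 0.989 within daf-2(-) and 0.987 within the double mutant, and libraries of different strains at 0.923 to 0.95. The tables hold no counts. The step between low RPKM values put the depth of daf-2(-) replicate 2 at 0.67 of replicate 1, and the double mutant libraries at 0.95 and 1.09 of it. Whether replicates came from separate cultures is not given in the sources used here, so p-values measure the spread between these samples.

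A gene was called when limma gave an adjusted p no larger than 0.05 and a change of 2-fold or more. With deposited RPKM, 1138 genes (5.58% of 20378) were lower and 3199 (15.7%) were higher in the double mutant. This excess of higher genes depended on the scaling. The median gene averaging 1 RPKM or more was 1.26-fold higher in the double mutant (median log2 fold change 0.33), and median RPKM over all tested genes was 5.02 and 4.1 in daf-2(-) against 5.38 and 6.04 in the double mutant. When the libraries were scaled by the median of gene-wise ratios (size factors 0.942 and 0.809 for daf-2(-), 1.12 and 1.2 for the double mutant), 1992 genes (9.78%) were lower, 1595 (7.83%) were higher and the median change was -0.015. All 1138 genes lower with deposited RPKM remained lower after scaling, and 1594 genes were higher under both. Another 1605 genes were called higher only with deposited RPKM, 854 were called lower only after scaling, and no gene was called in opposite directions. The groups of the 4 libraries did not overlap for 64.1% of tested genes. Leave-one-out fits over the other 5 libraries, in which the lone replicate of a strain is assumed to vary like the rest, called 665 genes lower and 1656 higher without replicate 2 of daf-2(-), 720 and 2935 without replicate 1 of daf-2(-), 702 and 2297 without replicate 1 of the double mutant, and 1157 and 2674 without replicate 2 of the double mutant. In what follows, counts are given as called with deposited RPKM, followed by the count with median-ratio scaling.

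**Figure D1:**
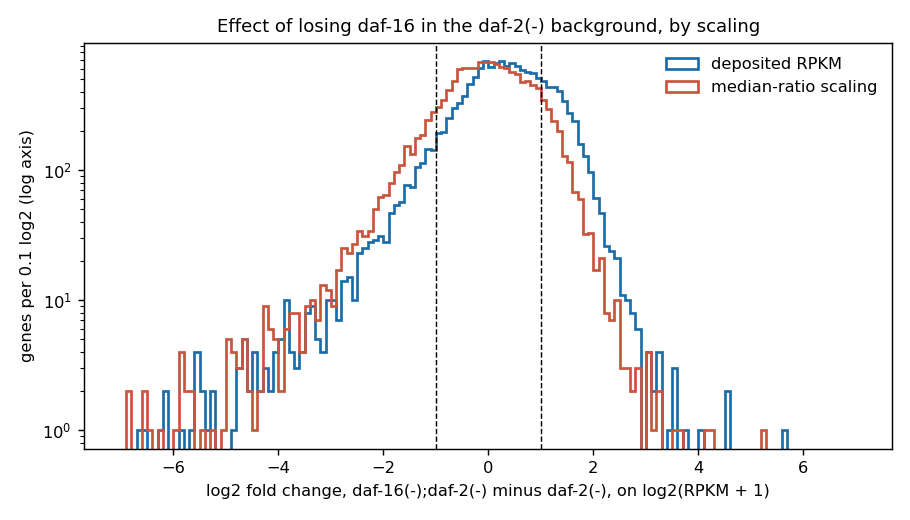
Distribution of the log2 fold change, double mutant minus daf-2(-), of genes averaging 1 RPKM or more (x axis, on log2(RPKM + 1); values beyond 7 in size are drawn at 7; y axis, genes per bin on a log axis). The deposited values (blue) are centred at 0.33 and the median-ratio scaled values (orange) at -0.015, and dashed lines mark a fold change of 2.

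The genes lower under both scalings had a median level of 30.3 RPKM in daf-2(-) and 8.46 RPKM in the double mutant. Genes higher under both scalings had a median of 6.85 RPKM in daf-2(-) and 24.7 RPKM in the double mutant. Each set was selected by its difference between the strains, so these levels only describe the sets. Among the 12 genes of largest decrease averaging 10 RPKM or more were mtl-1, a metallothionein that binds heavy metals, sod-3, a mitochondrial manganese superoxide dismutase, gst-29, a glutathione S-transferase, col-36, a cuticle collagen, and fipr-26, of the fungus-induced-peptide-related family. The other 7 are known by sequence name only and were H39E23.3, F56D6.9, Y68A4A.13, F21C10.11, F15B9.6, Y39G8B.7 and F45D11.14. H39E23.3 RNA was at 132 and 82.3 RPKM in daf-2(-) and 0.0700 and 0 RPKM in the double mutant (log2 fold change -6.67 ± 0.29 SE). It was near 0 in the double mutant, and it was also near 0 in WT, at 0.230 and 0.130 RPKM. F45D11.14 was the most abundant of the set in daf-2(-), at 1223 and 994 RPKM in daf-2(-) and 23.7 and 24.1 RPKM in the double mutant (log2 fold change -5.47 ± 0.16 SE). F21C10.11 read 832 and 814 RPKM in daf-2(-) and 7.03 and 15.5 RPKM in the double mutant (log2 fold change -6.16 ± 0.32 SE), with 27.3% of its exonic length shared with F21C10.13 on the same strand, and F56D6.9 shares 25% of its own with oac-21, so the reads of both cannot be fully assigned. All 12 were picked among called genes without overlap between groups, so their limma adjusted p (0.000107 to 0.000425) is no further support.

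The 12 genes of largest increase were led by ilys-5, of the invertebrate-type lysozymes, enzymes that cleave bacterial cell walls. Its RNA stood at 21.4 and 18.9 RPKM in daf-2(-) and 936 and 1151 RPKM in the double mutant, and at 1476 and 2567 RPKM in WT (log2 fold change 5.62 ± 0.16 SE, adjusted p = 0.000107). The daf-2(-) libraries were thus far below the other 4. The C-type lectins clec-10 (0.450 and 0.170 RPKM in daf-2(-) and 25 and 34.4 RPKM in the double mutant) and clec-47 (13.5 and 10.8 RPKM in daf-2(-) and 104.89 and 128 RPKM in the double mutant) followed the same order. The CUB-domain genes dod-24 and dod-22 and the sequence-named F49C5.11 and C32H11.4 belonged to this set as well. The P-glycoprotein genes pgp-5 and pgp-6, coding for ABC exporters, had a different pattern across strains. For pgp-6 the values were 2.76 and 1.64 RPKM in daf-2(-) and 30.03 and 40.7 RPKM in the double mutant, with WT between the mutants at 8.91 and 9.01 RPKM. The remaining members were puf-3, an RNA-binding repressor of the oocyte, and the early embryonic genes pes-2.1 and pes-2.2. The paralogues pes-2.1 and pes-2.2, like pgp-5 and pgp-6, are so alike that the division of reads within each pair is uncertain.

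**Figure D2:**
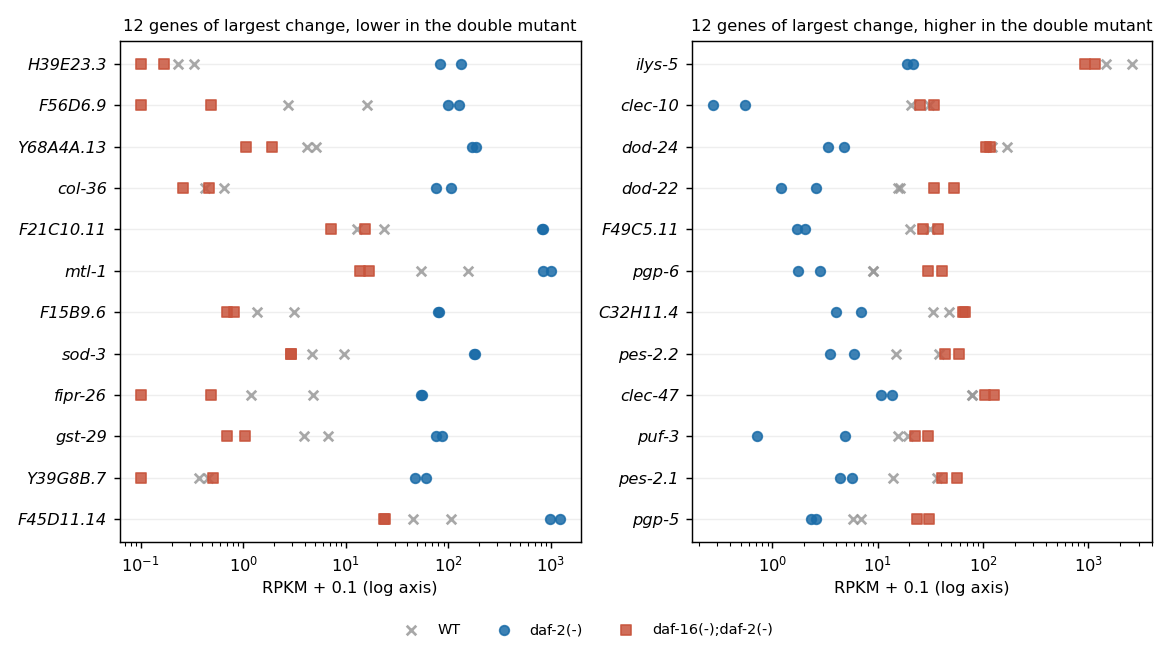
RPKM + 0.1 (log axis) of the 12 genes with the largest decrease (left) and increase (right) in the double mutant, with 1 point per library for WT (grey crosses), daf-2(-) (blue circles) and the double mutant (orange squares). The daf-2(-) points of sod-3 lie at 178 and 183 RPKM and the double mutant points at 2.83 and 2.81 RPKM.

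Of 26 genes long used as DAF-16 targets, 14 were lower (17 after scaling) and 1 was higher in the double mutant. Their median log2 fold change was -1.77, against 0.16 over all genes tested. The list was not divided by the direction known for each gene, so this median pools genes that DAF-16 activates with any that it holds down. sod-3 RNA fell from 178 and 183 RPKM in daf-2(-) to 2.83 and 2.81 RPKM (log2 fold change -5.57 ± 0.17 SE, adjusted p = 0.000107). mtl-1 was at 1010.1 and 849 RPKM in daf-2(-) and 13.7 and 16.8 RPKM in the double mutant (log2 fold change -5.84 ± 0.17 SE), and WT lay between the mutants at 54.6 and 155 RPKM. For hil-1, a linker histone variant, the libraries held 84.8 and 87.6 RPKM in daf-2(-) and 6.70 and 7.93 RPKM in the double mutant (log2 fold change -3.39 ± 0.18 SE). The groups of these 3 genes were widely apart. nnt-1, a nicotinamide nucleotide transhydrogenase of mitochondria, had 36.8 and 36.9 RPKM in daf-2(-) and 0.930 and 0.460 RPKM in the double mutant (log2 fold change -4.49 ± 0.26 SE). dod-3 was at 179 and 214 RPKM in daf-2(-) and 10.4 and 8.43 RPKM in the double mutant (log2 fold change -4.24 ± 0.18 SE), and lys-7, a lysozyme gene, at 514 and 691 RPKM in daf-2(-) and 33.8 and 49.4 RPKM in the double mutant (log2 fold change -3.83 ± 0.23 SE). The WT libraries differed from each other for dod-3 (28.3 and 67.5 RPKM) and lys-7 (20.02 and 98.6 RPKM), whereas the replicates of each mutant were closer together. icl-1, fat-5, ctl-2, sqrd-1, gpd-2, gpd-3, tps-1 and hsp-12.6 were also lower. The only classical target called higher was dod-24, with 4.70 and 3.25 RPKM in daf-2(-) and 106 and 116 RPKM in the double mutant (log2 fold change 4.51 ± 0.21 SE). Several genes of this list were not called. Among them, daf-15 was higher in both double mutant libraries, with a change just under 2-fold. The cytosolic catalase ctl-1 read 63.7 and 14.1 RPKM in daf-2(-) and 1.14 and 11.8 RPKM in the double mutant (adjusted p = 0.0847), with the replicates of each strain far apart, and it lies beside its close paralogues ctl-2 and ctl-3, so reads may be divided among them. The insulin-like gene ins-7 was at 6.66 and 7.70 RPKM in daf-2(-) and 8.25 and 10.2 RPKM in the double mutant (adjusted p = 0.38) and the yolk gene vit-5 at 2579.5 and 3296 RPKM in daf-2(-) and 3680.3 and 3372 RPKM in the double mutant (adjusted p = 0.312). scl-1 was near 0 in all 4 libraries, and aqp-1, dct-1 and ctl-1 were called lower only after scaling, the last in none of the 4 scaled leave-one-out fits. In leave-one-out fits limma no longer called lys-7 (adjusted p = 0.0549 to 0.0893) without any 1 of the 4 libraries.

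In antioxidant and detoxification lists, more genes were called lower than higher, although most members were not called. Of 8 superoxide dismutase and catalase genes, 5 were lower (6 after scaling), none was higher, and all 8 had a negative fold change. In leave-one-out fits, the number called lower was 3 without replicate 2 of daf-2(-) or replicate 2 of the double mutant. sod-1, the main cytosolic copper/zinc enzyme, was at 659 and 756 RPKM in daf-2(-) and 247 and 267 RPKM in the double mutant (log2 fold change -1.45 ± 0.14 SE). ctl-2, the peroxisomal catalase, was at 226 and 247 RPKM in daf-2(-) and 48.2 and 62.4 RPKM in the double mutant (log2 fold change -2.09 ± 0.17 SE). The decrease thus covered a cytosolic, a peroxisomal and a mitochondrial enzyme. By contrast, none of 17 thioredoxin, peroxiredoxin and glutathione-metabolism genes was called at either scaling, with a median of 0.13 (-0.23 after scaling). prdx-2, the most abundant of them, had 1294 and 1376 RPKM in daf-2(-) and 1065 and 1182 RPKM in the double mutant. Of 48 glutathione S-transferases, which couple toxins to glutathione, 17 were lower (24) and 1 was higher. The count called lower became 11 without replicate 2 of daf-2(-). gst-29 was at 76.1 and 85.9 RPKM in daf-2(-) and 0.590 and 0.940 RPKM in the double mutant, and gst-4, widely used as a reporter of oxidative stress, was at 222 and 208 RPKM in daf-2(-) and 32.5 and 55.7 RPKM in the double mutant (log2 fold change -2.31 ± 0.25 SE). gst-29 was thus near 0 in the double mutant, whereas gst-4 kept a measurable level. Of 80 cytochrome P450 genes, 19 were lower (33) and 4 higher (3). With a library left out, the number called lower was 12 without replicate 1 of daf-2(-) or replicate 1 of the double mutant. The neighbours in name cyp-35B1 (84.3 and 82.7 RPKM in daf-2(-) and 0.860 and 1.24 RPKM in the double mutant) and cyp-35B2 (21.8 and 28.7 RPKM in daf-2(-) and 0.590 and 0.4 RPKM in the double mutant) had the largest changes of the family, at -5.37 ± 0.21 and -4.12 ± 0.27 SE. Of 65 UDP-glucuronosyltransferases, 10 were lower and 7 higher (19 and 4). The share higher was below the 15.7% (7.83%) of all genes, and the share lower was above the 5.58% (9.78%) of all genes. Members called lower numbered 6 without replicate 2 of daf-2(-) or replicate 1 of the double mutant and 5 without replicate 1 of daf-2(-). ugt-41 was at 213 and 196 RPKM in daf-2(-) and 28.5 and 47.6 RPKM in the double mutant, whereas ugt-53 was at 3.80 and 3.96 RPKM in daf-2(-) and 14.4 and 17.7 RPKM in the double mutant. Of 7 metallothionein and cadmium-responsive genes, mtl-1, cdr-2, cdr-4 and cdr-6 were lower at both scalings. The number of them called lower was 2 without replicate 1 or 2 of daf-2(-). cdr-2 had 206.77 and 219.8 RPKM in daf-2(-) and 40.2 and 55.9 RPKM in the double mutant (log2 fold change -2.15 ± 0.19 SE). The iron store ferritin ftn-1 was at 121 and 101 RPKM in daf-2(-) and 5.36 and 8.36 RPKM in the double mutant (log2 fold change -3.85 ± 0.24 SE). Calls lost in leave-one-out fits were those of ftn-1 (adjusted p = 0.0534) without replicate 1 of daf-2(-).

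In carbohydrate use, the calls fell on the glyoxylate cycle, gluconeogenesis and glycolysis. The glyoxylate cycle lets worms make sugar from stored fat, and its enzyme gene icl-1 was at 726 and 772 RPKM in daf-2(-) and 118 and 110.5 RPKM in the double mutant (log2 fold change -2.70 ± 0.13 SE). The gluconeogenic gene pck-1 had 337 and 339.7 RPKM in daf-2(-) and 78.3 and 64.5 RPKM in the double mutant, its paralogue pck-2 had 1912 and 2013 RPKM in daf-2(-) and 646 and 743 RPKM in the double mutant, and the malate dehydrogenase gene mdh-1 had 1042 and 1129 RPKM in daf-2(-) and 458 and 496 RPKM in the double mutant. All 4 were lower at both scalings, out of 8 genes in this list. In glycolysis, where 4 of 13 genes were lower (9) and 2 higher (2), the glyceraldehyde-3-phosphate dehydrogenase genes moved apart. gpd-2 and gpd-3, which are near-identical and share reads, were at -1.77 ± 0.14 and -1.77 ± 0.15 SE, while gpd-1 (75.5 and 64.01 RPKM in daf-2(-) and 225 and 199 RPKM in the double mutant) and gpd-4 (32.5 and 24.5 RPKM in daf-2(-) and 115 and 106 RPKM in the double mutant) were higher, at 1.59 ± 0.16 and 1.93 ± 0.19 SE. gpd-1 and gpd-4 form a pair of close copies too, so each pair is best read as 1 signal. Of 25 genes for trehalose, glycerol and desiccation tolerance, 6 were lower (10). tps-2, a trehalose-6-phosphate synthase, stood at 74.2 and 70.5 RPKM in daf-2(-) and 24.2 and 21.6 RPKM in the double mutant, lea-1, of the hydrophilic desiccation proteins, at 126 and 117 RPKM in daf-2(-) and 40.3 and 31.4 RPKM in the double mutant, and djr-1.2, a glyoxalase, at 11.11 and 7.22 RPKM in daf-2(-) and 0.130 and 0.470 RPKM in the double mutant (log2 fold change -2.95 ± 0.31 SE). Limma did not call lea-1 (adjusted p = 0.0532 to 0.0602) without replicate 1 or 2 of daf-2(-).

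Among lipid genes, 5 of 8 lysosomal-type lipases were lower (6) and none was higher. The calls of lower numbered 2 without replicate 2 of daf-2(-) or replicate 1 or 2 of the double mutant and 1 without replicate 1 of daf-2(-). lipl-1 was at 86.0 and 98.2 RPKM in daf-2(-) and 10 and 14.1 RPKM in the double mutant, lipl-2 at 198 and 169 RPKM in daf-2(-) and 18.03 and 34.8 RPKM in the double mutant and lipl-5, the most abundant, at 732 and 865 RPKM in daf-2(-) and 243 and 317 RPKM in the double mutant (log2 fold changes -2.85 ± 0.21, -2.82 ± 0.30 and -1.52 ± 0.18 SE). lipl-4, a lipase known from germline-less longevity, was low throughout, at 4.07 and 2.61 RPKM in daf-2(-) and 0.420 and 0.320 RPKM in the double mutant. The fatty acid- and retinol-binding protein gene far-3 fell from an abundant RNA to a minor one, with 2448 and 2185 RPKM in daf-2(-) and 39.5 and 68.7 RPKM in the double mutant (log2 fold change -5.45 ± 0.26 SE, adjusted p = 0.000312). far-7 was lower as well and far-8 higher, the latter only with deposited RPKM, and after scaling 6 of the 8 genes of this family were lower. Of 9 intracellular lipid-binding protein genes, lbp-1, lbp-6 and lbp-8 were lower. lbp-8, a lysosomal lipid chaperone, was at 42.95 and 38.1 RPKM in daf-2(-) and 10.9 and 16.6 RPKM in the double mutant (log2 fold change -1.52 ± 0.23 SE). In the acyl-CoA synthetases, acs-2, a starvation-responsive enzyme of mitochondrial fat oxidation, had 129 and 128 RPKM in daf-2(-) and 21.1 and 17.8 RPKM in the double mutant (log2 fold change -2.67 ± 0.16 SE), whereas acs-4 had 37.6 and 31.4 RPKM in daf-2(-) and 127 and 91.6 RPKM in the double mutant (log2 fold change 1.62 ± 0.21 SE). Of 33 acyl-CoA dehydrogenase and beta-oxidation genes, 3 were lower (9) and 2 higher (0), with a median log2 fold change of -0.20 over all members. Of all genes, 5.58% were lower (9.78%) and 15.7% higher (7.83%), so the share higher was below that of all genes. hacd-1 and ech-9 were among the lower ones, at -2.43 ± 0.16 and -2.84 ± 0.28 SE. The desaturases fat-5 and fat-2 were the 2 called of 7, fat-5 with 97.3 and 85.2 RPKM in daf-2(-) and 14.6 and 20.02 RPKM in the double mutant and fat-2 with 1368 and 1342 RPKM in daf-2(-) and 588 and 740.3 RPKM in the double mutant. No elongase was called with deposited RPKM. The 5 vitellogenins, yolk proteins made by the adult intestine, had no call at either scaling, and their summed level was 11670 and 14210 RPKM in daf-2(-), 14110 and 12930 RPKM in the double mutant, and 9169 and 20960 RPKM in WT. The members did not move together. vit-1 was at 383 and 362 RPKM in daf-2(-) and 808 and 664 RPKM in the double mutant and vit-4 at 1686 and 1927 RPKM in daf-2(-) and 3109 and 2732 RPKM in the double mutant, with adjusted p of 0.00555 and 0.0188 but a change under 2-fold, whereas vit-2 was at 3455 and 4247 RPKM in daf-2(-) and 3179 and 3019.7 RPKM in the double mutant and vit-6 at 3563 and 4381 RPKM in daf-2(-) and 3332 and 3138 RPKM in the double mutant. The groups did not overlap for any of the 5, which also held for 64.1% of all tested genes, and the WT libraries were more than 2-fold apart in their sum. Some of these genes are close copies, and reads may be divided among them. Of 19 methionine-cycle and phosphatidylcholine genes 3 were lower and 2 higher (3 and 1), beside 5.58% lower and 15.7% higher of all genes with deposited RPKM. Lower were sams-5 (46.2 and 44.6 RPKM in daf-2(-) and 13.9 and 13.03 RPKM in the double mutant) and, among others, cth-1. The latter, of the transsulfuration pathway, had 501 and 550.4 RPKM in daf-2(-) and 128 and 149.5 RPKM in the double mutant. Of 11 hypoxia and hydrogen sulfide genes 5 were lower (8), including sqrd-1, a sulfide:quinone oxidoreductase (47.5 and 42.4 RPKM in daf-2(-) and 11.8 and 11.9 RPKM in the double mutant), and cysl-2, a cyanoalanine synthase (281 and 283 RPKM in daf-2(-) and 106 and 84.9 RPKM in the double mutant). Their count called lower changed to 2 without replicate 1 or 2 of daf-2(-) or replicate 1 of the double mutant. Few mitochondrial respiratory genes passed the test. Of 31 respiratory chain and ATP synthase genes none was lower and 3 were higher with deposited RPKM, and after scaling 3 were lower and 2 higher. Their share higher was below the 15.7% (7.83%) of all genes. The median was -0.245 (-0.654 after scaling) against 0.33 (-0.015) for all genes averaging 1 RPKM or more. The groups did not overlap for 25 of the 31, beside 64.1% of all tested genes. The 3 called higher, nduf-2.2, sdha-2 and ucr-2.3, were minor paralogues, as ucr-2.3 at 22.7 and 22.3 RPKM in daf-2(-) and 74 and 61.9 RPKM in the double mutant. Single genes missed the threshold with a library left out, namely lipl-1 (adjusted p = 0.062 to 0.102) without any 1 of the 4 libraries, lipl-5 (adjusted p = 0.0524 to 0.0681) and fat-5 (adjusted p = 0.0511 to 0.0599) without replicate 1 or 2 of daf-2(-), lipl-4 (adjusted p = 0.0588 to 0.0727) without replicate 1 of daf-2(-) or replicate 1 or 2 of the double mutant, and fat-2 (adjusted p = 0.0748 to 0.0992) without replicate 1 or 2 of daf-2(-) or replicate 1 of the double mutant.

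Heat shock genes did not move as a block, and the small heat shock genes had a median log2 fold change of -0.027, with 7 negative and 7 positive. Of 14 small heat shock genes, hsp-12.3, hsp-12.6, hsp-25 and hsp-43 were lower at both scalings. Fits lacking a library gave the count called lower as 2 without replicate 2 of daf-2(-) or replicate 1 of the double mutant. hsp-12.3 had 149.8 and 129.7 RPKM in daf-2(-) and 7.43 and 8 RPKM in the double mutant (log2 fold change -4.01 ± 0.17 SE) and hsp-12.6 had 22.1 and 22.5 RPKM in daf-2(-) and 1.56 and 1.78 RPKM in the double mutant (log2 fold change -3.13 ± 0.23 SE). The stress-inducible hsp-16 genes were not called. hsp-16.2 read 339 and 206 RPKM in daf-2(-) and 349 and 340.2 RPKM in the double mutant, and hsp-16.41 read 488 and 293 RPKM in daf-2(-) and 365 and 494 RPKM in the double mutant. hsp-16.1 read 814 and 331 RPKM in daf-2(-) and 652 and 1009 RPKM in the double mutant, and hsp-16.49 read 989 and 504 RPKM in daf-2(-) and 717 and 1353 RPKM in the double mutant. The groups overlapped for hsp-16.1, hsp-16.41 and hsp-16.49, and daf-2(-) replicate 1 was above replicate 2 for all 4 of these genes. WT libraries were below all mutant libraries, at 90.6 and 76.2 RPKM for hsp-16.2. The hsp-16 genes lie as inverted near-copies, and reads may be divided among them. In the HSP70 and HSP90 list, the inducible cytosolic HSP70 genes F44E5.4 (519 and 214 RPKM in daf-2(-) and 1023 and 959.6 RPKM in the double mutant) and F44E5.5 (512 and 216 RPKM in daf-2(-) and 1023 and 959 RPKM in the double mutant) were higher, at 1.57 ± 0.38 and 1.57 ± 0.37 SE, and these are near-identical neighbours whose reads cannot be told apart. hsp-60 and hsf-1, the heat shock factor (15.8 and 10.4 RPKM in daf-2(-) and 37.4 and 31.5 RPKM in the double mutant), were higher with deposited RPKM only. No subunit of the cytosolic chaperonin CCT was called. Of 17 genes of the endoplasmic reticulum unfolded protein response, ire-1 and ckb-2 were higher with deposited RPKM, a share below the 15.7% of all genes, and neither after scaling. In leave-one-out fits limma no longer called F44E5.4 (adjusted p = 0.128 to 0.155) and F44E5.5 (adjusted p = 0.125 to 0.15) without replicate 2 of daf-2(-) or replicate 1 or 2 of the double mutant, and hsf-1 (adjusted p = 0.0564 to 0.0654) without replicate 2 of daf-2(-) or replicate 1 of the double mutant.

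Immune effectors held genes called in each direction. Lower were 13 of 23 saposin-like genes (17), some of whose products permeabilise bacterial membranes, and none was higher. In leave-one-out fits, the number called lower was 7 without replicate 1 of daf-2(-) and 6 without replicate 2 of daf-2(-). spp-9 was at 27.9 and 22.3 RPKM in daf-2(-) and 0 and 0 RPKM in the double mutant, spp-20 at 28.4 and 28.3 RPKM in daf-2(-) and 0.110 and 0 RPKM in the double mutant and spp-2 at 202 and 240.2 RPKM in daf-2(-) and 44.6 and 61.0 RPKM in the double mutant. spp-9 was thus listed at 0 in both double mutant libraries, as it was in WT. Of 10 protist-type lysozymes, 4 were lower (5) and 2 higher (1). The count called lower became 1 without replicate 1 of daf-2(-) or replicate 1 of the double mutant and 0 without replicate 2 of daf-2(-). lys-7 led, followed by lys-2 (1179 and 1392 RPKM in daf-2(-) and 242 and 317 RPKM in the double mutant) and lys-8 (853 and 1009.6 RPKM in daf-2(-) and 193 and 222 RPKM in the double mutant), while lys-5 was the opposite, at 0.870 and 0 RPKM in daf-2(-) and 4.70 and 4.68 RPKM in the double mutant. Among invertebrate-type lysozymes, ilys-3 was lower (8.26 and 10.4 RPKM in daf-2(-) and 0.880 and 0.470 RPKM in the double mutant) and ilys-5 higher, so the family did not move as a block. Of 227 C-type lectin genes, many of which are low in whole animals, 29 were lower (37) and 23 higher (15), the latter a smaller share than the 15.7% (7.83%) of all genes. With a library left out, the number called lower was 18 without replicate 1 of daf-2(-) or replicate 1 of the double mutant and 15 without replicate 2 of daf-2(-). Members called higher numbered 14 without replicate 1 of daf-2(-) and 11 without replicate 2 of daf-2(-). clec-52 (765 and 712 RPKM in daf-2(-) and 15.7 and 22.4 RPKM in the double mutant) and clec-258 (571 and 503 RPKM in daf-2(-) and 20.9 and 29.2 RPKM in the double mutant) had the largest decreases among the more abundant ones, at -5.23 ± 0.19 and -4.38 ± 0.19 SE. Of 15 caenacin and antibacterial-factor genes, 5 were lower, for example cnc-4 (34.2 and 27.9 RPKM in daf-2(-) and 11.8 and 5.58 RPKM in the double mutant). The number of them called lower was 3 without replicate 2 of daf-2(-) or replicate 1 of the double mutant, 2 without replicate 1 of daf-2(-) and 1 without replicate 2 of the double mutant. In contrast, 4 of 9 CUB-domain and infection-responsive genes were higher and none was lower with deposited RPKM. They were dod-24, dod-22 (2.48 and 1.11 RPKM in daf-2(-) and 34.2 and 53.04 RPKM in the double mutant), dod-17 (8.35 and 8.20 RPKM in daf-2(-) and 33.4 and 38.5 RPKM in the double mutant) and irg-1 (4.21 and 3.74 RPKM in daf-2(-) and 16.39 and 23.6 RPKM in the double mutant), and irg-1, a gene induced by Pseudomonas aeruginosa, was also above its WT level of 6.5 and 6.14 RPKM. Calls lost in leave-one-out fits were those of lys-2 (adjusted p = 0.0538 to 0.0686) and lys-8 (adjusted p = 0.0578 to 0.0738) without replicate 1 or 2 of daf-2(-) or replicate 1 of the double mutant, lys-5 (adjusted p = 0.0862 to 0.11) without replicate 2 of daf-2(-) or replicate 1 or 2 of the double mutant, and cnc-4 (adjusted p = 0.0607 to 0.118) without replicate 1 or 2 of daf-2(-) or replicate 2 of the double mutant.

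Secreted and lysosomal proteins contributed some of the largest decreases. Of 22 SCP/TAPS genes, coding for secreted cysteine-rich proteins, 8 were lower (8) and 2 higher (1), and those averaging 1 RPKM or more had a median of -1.84. scl-11, scl-12 and scl-13 were listed at 0 in both double mutant libraries, and scl-12 was at 17.96 and 25.9 RPKM in daf-2(-) and 0 and 0 RPKM in the double mutant. These RNAs were also at or near 0 in WT, so they were above trace level only in the daf-2(-) libraries. In the cathepsins, aspartyl proteases and cystatins, 8 of 17 were lower (12) and cpr-5 was higher. The calls of lower numbered 5 without replicate 1 of daf-2(-) and 4 without replicate 2 of daf-2(-). cpi-1, a cystatin that inhibits cysteine proteases, was at 3569 and 3289 RPKM in daf-2(-) and 261 and 404 RPKM in the double mutant (log2 fold change -3.40 ± 0.22 SE), asp-3, a lysosomal aspartyl protease, at 3647 and 4288 RPKM in daf-2(-) and 883 and 1107 RPKM in the double mutant (log2 fold change -1.998 ± 0.18 SE), and cpr-2 at 22.3 and 28.7 RPKM in daf-2(-) and 0.15 and 0 RPKM in the double mutant (log2 fold change -4.62 ± 0.27 SE). Cathepsin B-like cpr-2 was thus near 0 in the double mutant while its relative cpr-5 was raised to 305 and 429.8 RPKM from 77.1 and 86.3 RPKM. Of 57 transthyretin-related genes, a nematode family of secreted proteins, 22 were lower (34) and 1 was higher. Their count called lower changed to 11 without replicate 2 of daf-2(-) or replicate 1 of the double mutant and 9 without replicate 1 of daf-2(-). ttr-45 was the most abundant named here, at 882 and 909 RPKM in daf-2(-) and 155 and 209 RPKM in the double mutant, and ttr-26 was at 307 and 288 RPKM in daf-2(-) and 27.8 and 53.7 RPKM in the double mutant. Limma did not call cpi-1 (adjusted p = 0.0518) without replicate 1 of daf-2(-).

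**Figure D3:**
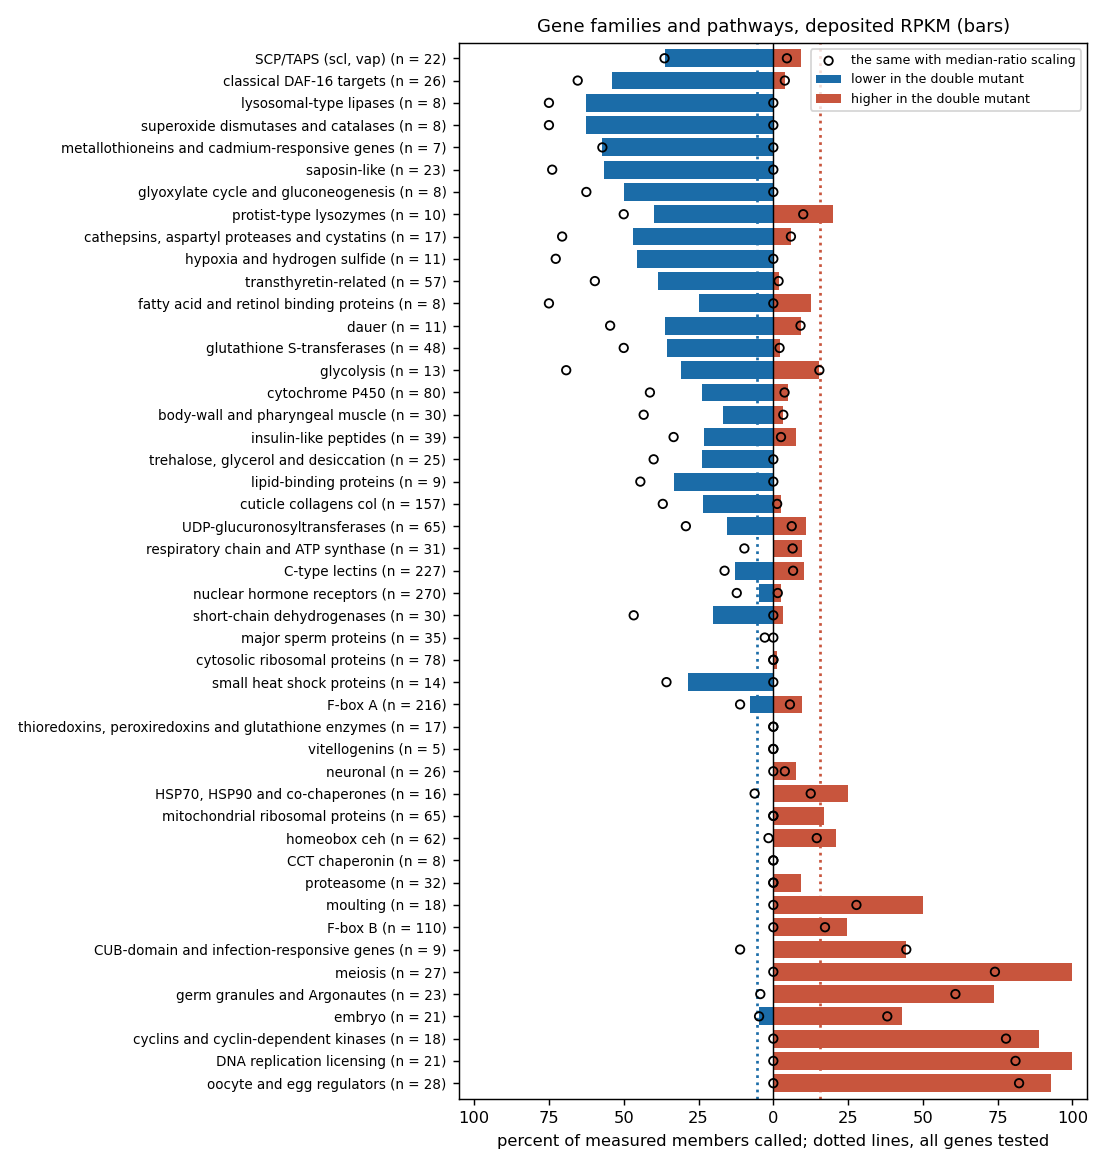
Percent of measured members of each list called lower (blue bars, drawn to the left) or higher (orange bars, to the right) in the double mutant with deposited RPKM, with open circles for median-ratio scaling and dotted lines for all genes tested (5.58% lower, 15.7% higher). Lists are ordered by the median log2 fold change of members averaging 1 RPKM or more, from SCP/TAPS (-1.84) at the top to oocyte and egg regulators (2.16) at the bottom.

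In insulin signalling, ligands were called lower more often than higher. Of 39 insulin-like peptide genes, 9 were lower (13) and 3 higher (1). Fits lacking a library gave the count called lower as 4 without replicate 1 of daf-2(-). ins-35 was at 74.3 and 60.5 RPKM in daf-2(-) and 15.9 and 11.8 RPKM in the double mutant, ins-29 at 33.1 and 20.7 RPKM in daf-2(-) and 2.89 and 6 RPKM in the double mutant and ins-11 at 19.5 and 14.7 RPKM in daf-2(-) and 0.540 and 4.06 RPKM in the double mutant. ins-11 was the least even of these, since its double mutant replicates differed from each other. In the other direction, ins-34 was at 0.510 and 0.750 RPKM in daf-2(-) and 7.30 and 6.01 RPKM in the double mutant (log2 fold change 2.23 ± 0.26 SE). The share of the peptides called higher was below that of all genes under both scalings. In the cascade inside the cell, 3 of 19 genes were lower (4), among them daf-16 itself, and 7 higher (2). Of all genes, 5.58% were lower (9.78%) and 15.7% higher (7.83%). There, akt-2, a kinase that inhibits DAF-16, was lower, at 37.1 and 34.9 RPKM in daf-2(-) and 11.11 and 8.81 RPKM in the double mutant (log2 fold change -1.76 ± 0.20 SE). hcf-1, a nuclear repressor of DAF-16, was higher (22.5 and 16.3 RPKM in daf-2(-) and 71.0 and 62.9 RPKM in the double mutant). The call of hcf-1 remained after scaling. aakg-4, a gamma subunit of AMP-activated kinase, was at 24.9 and 24.5 RPKM in daf-2(-) and 3.84 and 3.55 RPKM in the double mutant and aakb-1, a beta subunit, at 53.7 and 62.6 RPKM in daf-2(-) and 23.7 and 23.5 RPKM in the double mutant, and these were the 2 lower genes in a list of 17 AMPK and TOR genes. The TOR kinase gene let-363 was higher only with deposited RPKM. klo-1, of the Klotho family, was at 57.3 and 49.3 RPKM in daf-2(-) and 20.02 and 20.7 RPKM in the double mutant (log2 fold change -1.34 ± 0.17 SE). Of 43 nlp neuropeptide-like genes 6 were lower and 1 was higher, with nlp-39 at 124 and 172 RPKM in daf-2(-) and 7.43 and 10.4 RPKM in the double mutant and nlp-40, an intestinal signal for defecation, at 548 and 621 RPKM in daf-2(-) and 191 and 252 RPKM in the double mutant. In leave-one-out fits, the number called lower was 3 without replicate 2 of daf-2(-) or replicate 1 of the double mutant and 1 without replicate 1 of daf-2(-). No gene of the dafachronic acid and dauer TGF-beta pathway was called, of 17, and no autophagy gene with deposited RPKM, of 26. After scaling lgg-1, the worm Atg8 homologue, was called lower, with 1446 and 1335 RPKM in daf-2(-) and 663 and 1048 RPKM in the double mutant, a call that held in 1 of 4 scaled leave-one-out fits. Single genes missed the threshold with a library left out, namely ins-29 (adjusted p = 0.0523) without replicate 1 of daf-2(-), and ins-11 (adjusted p = 0.0889 to 0.121) and nlp-40 (adjusted p = 0.0518 to 0.0641) without replicate 1 or 2 of daf-2(-).

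Among transcription factors and ubiquitin-ligase adaptors, nuclear hormone receptors were mostly below the threshold, with 13 of 270 lower and 7 higher (33 and 4). After scaling the share lower was above the 9.78% of all genes and the share higher below the 7.83%. With deposited RPKM neither share exceeded that of all genes. The count called lower became 8 without replicate 1 of the double mutant and 6 without replicate 1 of daf-2(-). With a library left out, the number called higher was 4 without replicate 2 of the double mutant, 3 without replicate 1 of daf-2(-) or replicate 1 of the double mutant and 0 without replicate 2 of daf-2(-). nhr-17 (114 and 69.9 RPKM in daf-2(-) and 23.8 and 24.5 RPKM in the double mutant) and nhr-11 (21.5 and 17.4 RPKM in daf-2(-) and 4.74 and 5.79 RPKM in the double mutant) were lower, and nhr-2, an early embryonic receptor, was higher (2.60 and 1.68 RPKM in daf-2(-) and 14.5 and 12.1 RPKM in the double mutant). After scaling 1 of 62 ceh homeobox genes was lower and 9 were higher, beside 7.83% of all genes higher, and these calls depended on the library left out. With deposited RPKM none of the 62 was lower and 13 were higher, beside 15.7% of all genes higher. Members called higher numbered 5 without replicate 2 of daf-2(-). They were low RNAs, as ceh-32 at 1.88 and 1.89 RPKM in daf-2(-) and 11.3 and 11.8 RPKM in the double mutant and ceh-49 at 4.96 and 4.41 RPKM in daf-2(-) and 18.4 and 19.5 RPKM in the double mutant. F-box B genes gave 27 higher and none lower of 110 (19 higher after scaling), although the 28 members averaging 1 RPKM or more were few. The number of them called higher was 8 without replicate 2 of the double mutant, 5 without replicate 1 of daf-2(-) and 4 without replicate 2 of daf-2(-). fbxb-41 had 0.630 and 0.810 RPKM in daf-2(-) and 4.82 and 9.60 RPKM in the double mutant, and fbxb-103 had 1.02 and 0.210 RPKM in daf-2(-) and 6.55 and 7.31 RPKM in the double mutant. The F-box A family had no such lean, with 17 lower and 21 higher of 216 (24 and 12 after scaling). Its share of higher genes was below that of all genes under both scalings, and its share of lower genes was above. The calls of lower numbered 9 without replicate 1 of the double mutant, 8 without replicate 1 of daf-2(-) and 7 without replicate 2 of daf-2(-). Their count called higher changed to 9 without replicate 2 of daf-2(-). Both are expanded families with close copies, and reads may be shared. In the dct family, named for DAF-16-dependent control of germline tumours, 4 of 17 genes were lower (7) and dct-13 was higher. Fits lacking a library gave the count called lower as 1 without replicate 1 of daf-2(-). dct-8 was at 41.2 and 34.1 RPKM in daf-2(-) and 1.41 and 0.310 RPKM in the double mutant, with uneven WT libraries at 3.35 and 15.8 RPKM. math-14, of the MATH-domain family, was at 0.3 and 0.110 RPKM in daf-2(-) and 7.32 and 14.9 RPKM in the double mutant, and bath-26 moved the opposite way, at 29.5 and 26.5 RPKM in daf-2(-) and 2.36 and 2.86 RPKM in the double mutant. In leave-one-out fits limma no longer called nhr-2 (adjusted p = 0.0576 to 0.0894) and fbxb-103 (adjusted p = 0.0633 to 0.11) without any 1 of the 4 libraries, fbxb-41 (adjusted p = 0.087 to 0.114) without replicate 1 or 2 of daf-2(-) or replicate 2 of the double mutant, and dct-8 (adjusted p = 0.0543 to 0.0628) without replicate 1 or 2 of daf-2(-).

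Of 5 heme-responsive genes, 3 were higher in the double mutant and none was lower. hrg-3, which carries heme from the intestine to embryos, was at 0.330 and 0.490 RPKM in daf-2(-) and about 10 and 22.3 RPKM in the double mutant and at 10.2 and 18.1 RPKM in WT. hrg-1, a heme importer of endolysosomes, was at 21.4 and 22.6 RPKM in daf-2(-) and 62.5 and 78.0 RPKM in the double mutant, and hrg-4, of the intestinal surface, at 9.88 and 8.49 RPKM in daf-2(-) and 28.9 and 61.2 RPKM in the double mutant. All 3 were higher at both scalings (log2 fold changes 3.51 ± 0.39, 1.62 ± 0.18 and 2.09 ± 0.35 SE), and the daf-2(-) libraries were below the other 4 for each, while WT and the double mutant overlapped. hrg-5 and hrg-6 were not called. Part of the exonic length of hrg-3 (20.7%) is overlapped by an antisense gene, and strand handling is not stated. Calls lost in leave-one-out fits were those of hrg-1 (adjusted p = 0.053 to 0.0684) without replicate 1 or 2 of daf-2(-) or replicate 2 of the double mutant, and hrg-4 (adjusted p = 0.081 to 0.0915) without replicate 1 or 2 of daf-2(-).

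Cuticle genes separated by subset. Of 157 col collagen genes, 37 were lower (58) and 4 higher (2). In leave-one-out fits, the number called lower was 18 without replicate 1 of the double mutant and 17 without replicate 2 of daf-2(-). col-36 was at 75.8 and 107 RPKM in daf-2(-) and 0.160 and 0.360 RPKM in the double mutant, col-43 at 50.1 and 85.8 RPKM in daf-2(-) and 5.29 and 3.04 RPKM in the double mutant, col-40 at 16.3 and 42.5 RPKM in daf-2(-) and 1.31 and 0.580 RPKM in the double mutant and col-37 at 11.06 and 31.3 RPKM in daf-2(-) and 0.6 and 0.270 RPKM in the double mutant. In each of these, daf-2(-) replicate 2 was above replicate 1, and both were far above the double mutant. In a list of 11 dauer-associated genes, col-40, col-2 (13.6 and 35.6 RPKM in daf-2(-) and 2.13 and 0.360 RPKM in the double mutant), hsp-12.6 and ins-35 were lower and the lipase-like lips-6 was higher, and the summed level of the list was 140.1 and 174.0 RPKM in daf-2(-), 47.15 and 28.04 RPKM in the double mutant, and 60.33 and 39 RPKM in WT. Whether the share of dauer or pre-dauer larvae differed between the cultures was not tested. Moulting genes went the other way, with 9 of 18 higher (5) and none lower, and summed levels of 422.4 and 325.4 RPKM in daf-2(-) against 799.0 and 638.2 RPKM in the double mutant. The count called higher became 3 without replicate 1 of daf-2(-), 2 without replicate 1 of the double mutant and 0 without replicate 2 of daf-2(-). noah-1, an apical matrix protein of the moult, had 34.6 and 24.9 RPKM in daf-2(-) and 103.41 and 74.9 RPKM in the double mutant, mlt-11, a protease inhibitor, had 8.13 and 5 RPKM in daf-2(-) and 29.98 and 19.2 RPKM in the double mutant, and qua-1, a hedgehog-related protein, had 14.98 and 9.41 RPKM in daf-2(-) and 46.2 and 31.9 RPKM in the double mutant. WT libraries held 874.3 and 682.4 RPKM over this list, so daf-2(-) stood below both other strains. The body-shape collagens dpy-2, dpy-7 and dpy-10 were higher with deposited RPKM only, and lon-3 was higher at both scalings but uneven, at 7.56 and 3.09 RPKM in daf-2(-) and 20.9 and 73.1 RPKM in the double mutant. Limma did not call col-2 (adjusted p = 0.0525) without replicate 2 of daf-2(-), noah-1 (adjusted p = 0.0551 to 0.0683) and mlt-11 (adjusted p = 0.0683 to 0.0811) without replicate 2 of daf-2(-) or replicate 1 of the double mutant, and qua-1 (adjusted p = 0.144 to 0.288) and lon-3 (adjusted p = 0.0922 to 0.312) without any 1 of the 4 libraries.

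Oocyte RNAs were higher in the double mutant for nearly the whole list. Of 28 oocyte and egg genes, 26 were higher in the double mutant (23) and none was lower, with a median log2 fold change of 2.16 (1.76 after scaling). Their summed level was 2345 and 2203 RPKM in daf-2(-), 6693 and 5673 RPKM in the double mutant, and 3614 and 4576 RPKM in WT. The strains thus ranked in the order daf-2(-), WT, double mutant with no overlap. spn-4, an RNA-binding protein of the early embryo, was at 69.2 and 49.99 RPKM in daf-2(-) and 387 and 310.1 RPKM in the double mutant (log2 fold change 2.54 ± 0.21 SE), gld-1, a translational repressor of the germline, at 45.5 and 34.8 RPKM in daf-2(-) and 279.9 and 182 RPKM in the double mutant (log2 fold change 2.47 ± 0.24 SE), and cbd-1, of the eggshell, at 48.2 and 33.6 RPKM in daf-2(-) and 317 and 209.6 RPKM in the double mutant (log2 fold change 2.65 ± 0.26 SE). puf-3 was the least even, with 4.79 and 0.620 RPKM in daf-2(-) and 22.5 and 29.6 RPKM in the double mutant. perm-2 and perm-4 of the eggshell permeability barrier were the 2 members not called. Single genes missed the threshold with a library left out, namely puf-3 (adjusted p = 0.0586 to 0.0737) without replicate 1 or 2 of the double mutant.

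Genes of meiosis and of the cell cycle rose with them. All 27 meiosis genes of the list were higher with deposited RPKM and 20 after scaling, with log2 fold changes between 1.17 and 1.99. With a library left out, the number called higher was 17 without replicate 2 of daf-2(-). Members called higher after scaling numbered 9 without replicate 1 of the double mutant and 6 without replicate 2 of daf-2(-). him-3, of the chromosome axis, had 19.7 and 13.9 RPKM in daf-2(-) and 72.8 and 62.5 RPKM in the double mutant and zhp-3, a crossover regulator, had 8.42 and 4.53 RPKM in daf-2(-) and 27.1 and 28.3 RPKM in the double mutant. All 21 genes of DNA replication licensing were higher, 17 of them after scaling. The number of them called higher after scaling was 11 without replicate 1 of the double mutant and 8 without replicate 2 of daf-2(-). mcm-7, of the replicative helicase, was at 30.8 and 27.6 RPKM in daf-2(-) and 126 and 115 RPKM in the double mutant (log2 fold change 2.012 ± 0.15 SE) and orc-1, of the origin recognition complex, at 12.27 and 8.37 RPKM in daf-2(-) and 41.5 and 37.3 RPKM in the double mutant (log2 fold change 1.85 ± 0.23 SE). Of 18 cyclin and cyclin-dependent kinase genes, 16 were higher (14). The calls of higher after scaling numbered 9 without replicate 1 of the double mutant and 6 without replicate 2 of daf-2(-). cyb-3 was at 85.2 and 76.3 RPKM in daf-2(-) and 365 and 331 RPKM in the double mutant and cdk-1, the mitotic kinase, at 53.3 and 39.95 RPKM in daf-2(-) and 171 and 174 RPKM in the double mutant. Replication and mitotic genes thus stood at roughly equal increases. Of 23 germ-granule and Argonaute genes 17 were higher (14). Their count called higher after scaling changed to 7 without replicate 1 of daf-2(-) and 2 without replicate 2 of daf-2(-). meg-1 had 9.75 and 7.02 RPKM in daf-2(-) and 56.9 and 43.7 RPKM in the double mutant, pgl-3 had 14.1 and 13.2 RPKM in daf-2(-) and 67.95 and 45.02 RPKM in the double mutant, and glh-2, a Vasa-like helicase, had 7.68 and 5.79 RPKM in daf-2(-) and 41.7 and 27.7 RPKM in the double mutant. Of 21 embryonic genes, 9 were higher (8), among them the T-box pair tbx-37 and tbx-38 (0.540 and 0.340 RPKM in daf-2(-) and 4.89 and 6.08 RPKM in the double mutant), and sdz-8 was lower. Fits lacking a library gave the count called higher as 4 without replicate 1 or 2 of daf-2(-) or replicate 2 of the double mutant. In leave-one-out fits, the number called higher after scaling was 4 without replicate 1 or 2 of the double mutant, 2 without replicate 1 of daf-2(-) and 1 without replicate 2 of daf-2(-). The endoderm specification genes end-1, end-3, med-1 and med-2 were not called. In leave-one-out fits limma no longer called glh-2 (adjusted p = 0.0506) without replicate 2 of daf-2(-), and tbx-38 (adjusted p = 0.0511 to 0.067) without replicate 1 or 2 of daf-2(-) or replicate 2 of the double mutant.

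Sperm RNA did not follow. None of 35 major sperm protein genes was called with deposited RPKM and 1 was lower after scaling. Their summed level was 3698 and 2386 RPKM in daf-2(-), 1995 and 3401 RPKM in the double mutant and 2112 and 2424 RPKM in WT, and the strains overlapped. These genes are near-identical, and their reads cannot be assigned singly. Of 12 nspb genes, short genes at low RPKM within a wider sperm-specific set, 9 were higher (8). For nspb-3 the values were 0.570 and 0.830 RPKM in daf-2(-) and 6.56 and 6.63 RPKM in the double mutant. In the whole set of 62 sperm-specific genes 10 were higher (8) and 2 lower, beside 15.7% (7.83%) of all genes higher. The count called higher became 5 without replicate 2 of the double mutant and 2 without replicate 1 or 2 of daf-2(-) or replicate 1 of the double mutant. With a library left out, the number called higher after scaling was 2 without replicate 2 of daf-2(-) or replicate 1 of the double mutant and 1 without replicate 1 of daf-2(-) or replicate 2 of the double mutant. Germ cells, embryos and larval stages are present in unknown proportions in each culture, and the part that differing proportions of stages play in these results was not tested.

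**Figure D4:**
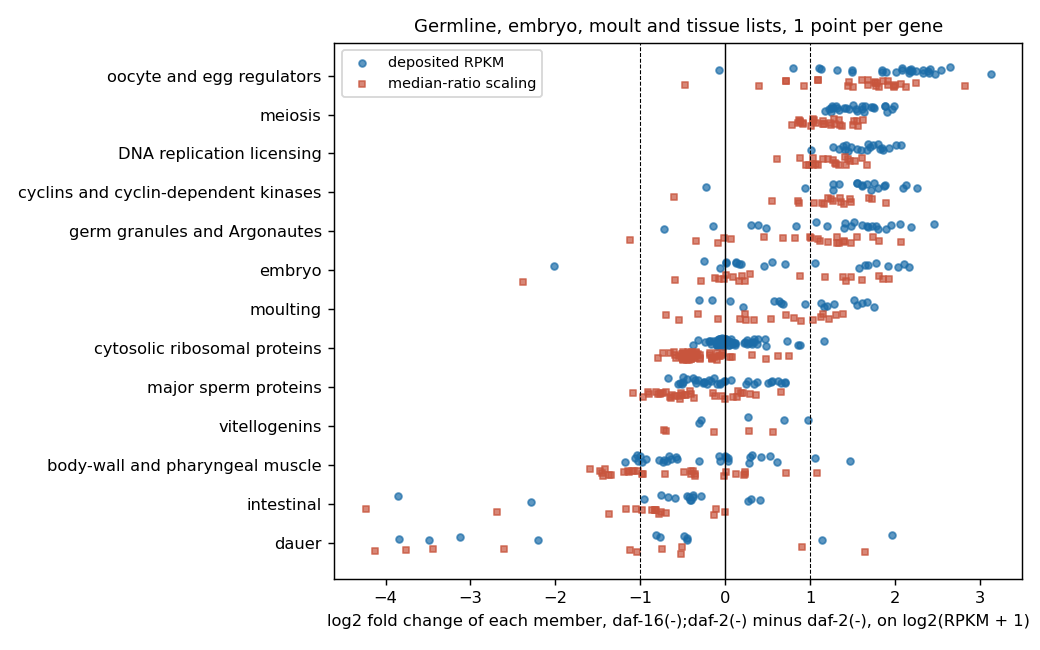
Log2 fold change (x axis, double mutant minus daf-2(-), on log2(RPKM + 1)) of every member of the germline, embryo, moult and tissue lists, with 1 point per gene for deposited RPKM (blue circles) and median-ratio scaling (orange squares) and dashed lines at a fold change of 2. Oocyte, meiosis and replication genes lie to the right (medians 2.16, 1.53 and 1.67 with deposited RPKM), whereas ribosomal protein and major sperm protein genes lie around 0.

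Markers of somatic tissues moved less. Of 30 muscle genes 5 were lower (13) and 1 was higher, and their summed level was 19890 and 22740 RPKM in daf-2(-), 10580 and 13690 RPKM in the double mutant and 13010 and 14010 RPKM in WT. Members called lower numbered 1 without replicate 1 of daf-2(-) and 0 without replicate 2 of daf-2(-) or replicate 1 of the double mutant. unc-87, a thin-filament protein, had 687 and 787 RPKM in daf-2(-) and 275 and 383 RPKM in the double mutant. Of 16 intestinal genes only ftn-1 and ges-1, a gut esterase (84.6 and 96.97 RPKM in daf-2(-) and 16.8 and 18.7 RPKM in the double mutant), were lower with deposited RPKM, and 4 after scaling. The gut differentiation factor elt-2 was not called, and the list summed to 10260 and 12330 RPKM in daf-2(-) and 7008 and 8371 RPKM in the double mutant. Of 26 neuronal genes cha-1 and tdc-1 were higher and none was lower, and only tdc-1 remained after scaling. This share higher was below the 15.7% (7.83%) of all genes. The muscle and intestinal lists thus leaned down and the oocyte list up in the same libraries. The part that the share of each tissue in a library plays in these values was not tested. Calls lost in leave-one-out fits were those of unc-87 (adjusted p = 0.0434 to 0.0778, with a change under 2-fold where p passed) without replicate 1 or 2 of daf-2(-) or replicate 1 of the double mutant.

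In the lists for protein synthesis and turnover, scaling changed the size of the medians and the calls but no median's sign. Of 78 cytosolic ribosomal protein genes, the 77 averaging 1 RPKM or more had a median log2 fold change of -0.03 with deposited RPKM and -0.44 after scaling. The summed level of all 78 was 182300 and 183500 RPKM in daf-2(-) and 181200 and 199900 RPKM in the double mutant. Only rpl-11.1 was called, higher with deposited RPKM (602 and 549 RPKM in daf-2(-) and 1493 and 1112 RPKM in the double mutant). Proteasome genes had a median of 0.77 (0.36), with 3 of 32 higher and none after scaling, a share below the 15.7% of all genes. Mitochondrial ribosomal protein genes had a median of 0.69 (0.29), with 11 of 65 higher and none after scaling, a share near the 15.7% of all genes. The number of them called higher was 18 without replicate 1 of daf-2(-), 7 without replicate 2 of the double mutant and 1 without replicate 2 of daf-2(-). Core histone genes, which poly(A) selection captures poorly, had 5 of 71 higher (1), a share below the 15.7% (7.83%) of all genes. The calls of higher numbered 1 without replicate 1 or 2 of daf-2(-) or replicate 1 of the double mutant. These medians stand beside 0.33 with deposited RPKM and -0.015 after scaling for all genes averaging 1 RPKM or more. Limma did not call rpl-11.1 (adjusted p = 0.0362 to 0.0639, with a change under 2-fold where p passed) without replicate 2 of daf-2(-) or replicate 1 of the double mutant.

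The chromosomes did not share equally in the change. Of the tested genes, 18248 (89.5%) were matched by name to the WBcel235 annotation, used for the chromosome of each gene and for the exon overlaps given above. Among genes averaging 1 RPKM or more, 23.9% of 11708 autosomal genes were higher in the double mutant against 9.59% of 1908 X-linked genes, and 7.35% against 9.96% were lower. Median-ratio scaling gave 11.9% and 4.93% higher and 12.9% and 18.2% lower. The median log2 fold change was 0.38 on autosomes and 0.042 on X (0.03 and -0.30 after scaling). Among the autosomes, chromosome I had the highest share of higher genes (29.6%) and chromosome V the lowest (18.7%), while V had the highest share of lower genes (12.4%). As background, the X chromosome of the worm carries few germline genes and chromosome V many genes of expanded families, such as those for lectins, F-box proteins and chemoreceptors. Genes on a chromosome are not independent of each other, and these shares are given as a description.

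**Figure D5:**
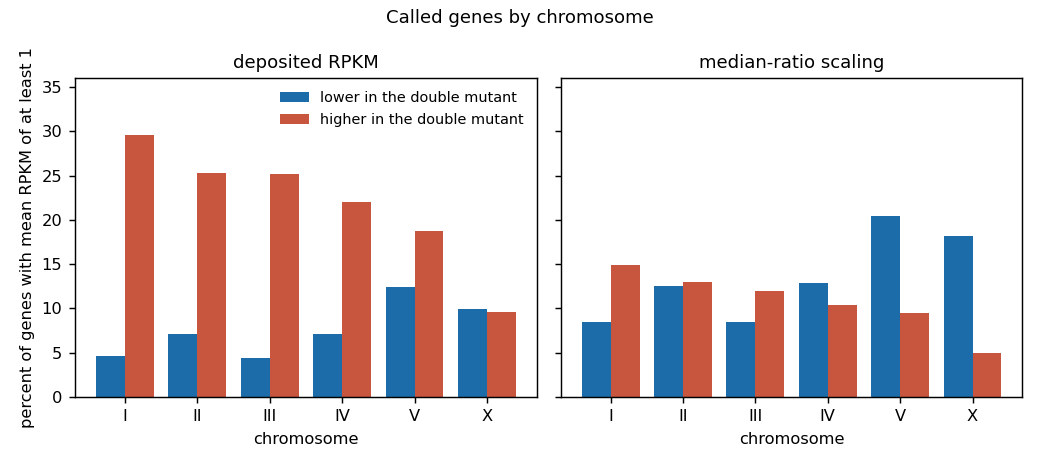
Percent of genes averaging 1 RPKM or more (y axis) called lower (blue) or higher (orange) in the double mutant on each chromosome (x axis), with deposited RPKM (left) and median-ratio scaling (right). The share of higher genes on X, 9.59% with deposited RPKM and 4.93% after scaling, is the lowest of the 6 chromosomes under both.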

How the data were processed

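Poly(A) RNA of mixed-stage worms was sequenced on an Illumina GAIIx by the authors, who aligned reads to WS230 with CLC Genomics Workbench (CASAVA 1.8.2 is also named in the submitters' processing notes) and deposited RPKM for each library in 1 table per strain, with no counts. Their handling of multiply mapping reads and of strand is not given in the sources used here. Commas inside large values were removed, and 6 names on more than 1 line were left out. The differences were fitted with limma 3.58.1 (R 4.3.3, trend on mean expression) on log2(RPKM + 1) over the 4 libraries, and p-values were adjusted by Benjamini-Hochberg over 20378 genes. The study itself used a test of proportions, which needs read totals. The procedure was tested on simulated data. Median-ratio size factors came from genes above 0 in all 4 libraries. Gene lists (87) and the comparison itself were chosen with earlier results of these data known, and lists are described by counts and medians without a test. Genes are named by rule: daf-16, daf-2 and the classical targets; the 12 genes of largest change each way called under both scalings averaging 10 RPKM or more and no overlap; and up to 4 called members of each list with the largest change and an average of 1 RPKM or more, or the 2 most abundant members of a list with no call. Genes named outside this rule carry a call or a count only, or were chosen after their values were seen: the families in the closing section and the uncalled or scaling-dependent members of a list. Alternatives were another scaling, 2 other pseudocounts, a filter, genes listed in both tables, a fit over 6 libraries, no trend, a replicate block and leaving out each library. Same-numbered replicates of the strains deviated with a correlation of -0.165, so the numbers do not pair them. Promoter sequences and coordinates of the WS230 build were not used here.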

Additional observations from a re-analysis of the deposited data

How the results depend on the processing

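With median-ratio scaling 1992 genes were lower and 1595 higher in the double mutant, the share of higher among called genes was 44.5% instead of 73.8%, and the median log2 fold change was -0.015. Quantile normalization gave 1694 lower and 1638 higher, a share of 49.2% and a median of 0.065. Other pseudocounts, the filter on mean RPKM, genes listed in both tables, unadjusted p, the fit over 6 libraries and limma without the trend kept both counts within 1.5 times (1107 to 1314 lower and 3166 to 3729 higher). The fit with a replicate block called 1073 genes lower and 3051 higher. Crossing the numbers in the replicate block, added after the data were seen, called 1182 and 3285. Fits to 3 libraries have 1 residual degree of freedom and called 0 genes in either direction, although 879 to 1351 genes were lower and 2261 to 3422 higher at an unadjusted p of 0.05. Leave-one-out fits that also used the WT libraries, added after the data were seen, called 665 to 1157 genes lower and 1656 to 2935 higher, with a median log2 fold change of 0.233 to 0.437 and a share of higher genes of 69.8% to 80.3%. With median-ratio scaling as well, they called 1085 to 1984 lower and 451 to 1616 higher, with shares of 29.4% to 44.9% and medians of -0.049 to -0.007.

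Of 150 genes given with values, 136 were called with deposited RPKM, and none of these changed sign in any alternative. 2 of them, hsf-1 and rpl-11.1, were not called with median-ratio scaling. With deposited RPKM, 99 were called in all 4 leave-one-out fits over 5 libraries, and 37 were not called in at least 1, each named with its values. With median-ratio scaling, 136 of the genes given with values were called, 98 of them in all 4 leave-one-out fits, and 38 were not called in at least 1. Of these 38, 12 were not among the 37. They were ctl-1 (called in 0 of 4), acs-4, ceh-32, ceh-49 and lgg-1 (1 of 4), pgl-3 and tbx-11 (2 of 4), and cyb-3, gpd-1, math-14, orc-1 and ucr-2.3 (3 of 4). Of the genes not called, 8 changed sign. The log2 fold change of daf-2 was -0.066 with median-ratio scaling and -0.099 after quantile normalization. For ins-7 these were -0.052 and -0.015, and prdx-2 was 0.355 after quantile normalization. With median-ratio scaling vit-5 was -0.138, hsp-16.2 was -0.029 and hsp-16.41 was -0.243. Leaving out a library with deposited RPKM kept daf-2 (0.027 to 0.591), ins-7 (0.18 to 0.45), vit-5 (0.096 to 0.45) and hsp-16.2 (0.023 to 0.737) above 0, whereas hsp-16.41 (-0.199 to 0.532), hsp-16.1 (-0.004 to 1.29) and hsp-16.49 (-0.006 to 0.966) crossed 0. Leaving out a library and scaling by median ratios together gave -0.401 to 0.251 for daf-2, -0.263 to 0.11 for ins-7, -0.445 to 0.115 for vit-5, -0.311 to 0.198 for hsp-16.2, -0.533 to -0.008 for hsp-16.41, -0.339 to 0.75 for hsp-16.1 and -0.346 to 0.466 for hsp-16.49. The cause was not tested. The motif search planned in promoters was not run, because no promoter sequence was at hand. RPKM without read totals give no counting interval, and values under about 1 RPKM rest on few reads.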

Other observations

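Genes were also grouped by the prefix of their names, and the families given here were chosen after their values were seen; some tbx and sdz genes are also in the embryo list and the nspb genes in the sperm-specific list. Nucleoporin genes (npp), which build the nuclear pore, were higher for 19 of 22 members with deposited RPKM and for 15 with median-ratio scaling, and none was lower. npp-21 was at 11.4 and 7.60 RPKM in daf-2(-) and 42.96 and 34.1 RPKM in the double mutant and npp-12 at 12.62 and 9.22 RPKM in daf-2(-) and 48.3 and 38.1 RPKM in the double mutant, with WT between the mutants for both (npp-12 at 24.7 and 24.9 RPKM). T-box genes (tbx), developmental transcription factors, were higher for 8 of 17 members under both scalings, as tbx-11 at 1.17 and 1.29 RPKM in daf-2(-) and 7.44 and 8.78 RPKM in the double mutant. The sdz genes, named for zygotic expression under the factor SKN-1, were higher for 16 of 35 members (14 with median-ratio scaling) and lower for 2. RNA exosome subunits (exos) were higher for 7 of 8 members with deposited RPKM but for 1 with median-ratio scaling, so their call rested on the scaling.

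In the opposite direction, galectin genes (lec), coding for secreted or cytosolic galactose-binding lectins, were lower for 7 of 12 members (8 with median-ratio scaling) and higher for none. lec-6 was an abundant RNA at 2574 and 2861 RPKM in daf-2(-) and 595 and 699 RPKM in the double mutant, and lec-8 was at 589 and 767 RPKM in daf-2(-) and 173 and 229.7 RPKM in the double mutant. The serpins (srp), inhibitors of serine proteases, were lower for 4 of 9 members under both scalings. The abu genes, which code for glutamine- and asparagine-rich repeat proteins of the pharyngeal cuticle, were higher for 6 of 14 members under both scalings, with abu-14 at 2.15 and 3.61 RPKM in daf-2(-) and 28.7 and 11.3 RPKM in the double mutant, an uneven pair in the double mutant. Of the nspa genes, 3 of 10 were lower (5 with median-ratio scaling) and none was higher, whereas 9 of 12 nspb genes were higher (8) and none was lower. Both are clusters of short, closely similar genes, and their reads cannot be assigned singly. Single genes missed the threshold with a library left out, namely lec-8 (adjusted p = 0.0631) without replicate 2 of daf-2(-), and abu-14 (adjusted p = 0.0592 to 0.0948) without replicate 1 or 2 of daf-2(-).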
